A study of Mus musculus with 5 samples.

Results

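Ring1b was mapped by chromatin immunoprecipitation followed by sequencing (ChIP-seq) in mouse embryonic stem cells in which the KAP1 gene had been targeted for deletion. All 8928 peaks that the authors listed for this experiment are described here, of 105219 peaks in the 3 lists of the study. No peak was chosen by its width, score or place. The library came from KAP1 fl/fl cells given 4-hydroxytamoxifen (OHT), 1 library with no replicate. Its peaks were called against 1 Ring1b library from Ring1b fl/fl cells that were also given OHT, a different cell line in which the Ring1b gene had been targeted. Each fl/fl line carries conditional alleles that OHT deletes, and no vehicle-treated Ring1b library of the KAP1 fl/fl line was analysed here. OHT was given for 24 h in both lines, followed by 48 h of culture, with OHT in the medium for Ring1b fl/fl cells and without it for KAP1 fl/fl cells. All cells grew on irradiated mouse embryonic fibroblasts. The other lists used for comparison hold 13516 Ring1b peaks of vehicle-treated Ring1b fl/fl cells and 82775 KAP1 peaks of vehicle-treated KAP1 fl/fl cells, each called against OHT-treated cells of the same line. Because the list and its control are 2 cell lines, differences in Ring1b binding, chromosome copy number and OHT exposure cannot be told apart. Peak positions give no RNA or protein level, so neither the deletion nor the cell type can be checked from them.

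Rnf2 encodes Ring1b, the main ubiquitin ligase within Polycomb repressive complex 1 (PRC1), which attaches ubiquitin to histone H2A. In embryonic stem cells PRC1 is best known at the CpG-rich promoters of silent developmental regulators, where it acts with Polycomb repressive complex 2 (PRC2), the enzyme that methylates lysine 27 of histone H3. KAP1, encoded by Trim28, is a corepressor that KRAB zinc finger proteins bring to DNA. It recruits the H3 lysine 9 methyltransferase SETDB1 and heterochromatin protein 1, and it is known in these cells for silencing endogenous retroviruses and protecting imprints.

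The promoters of 5 genes are printed as examples from each class in the authors' tables, and only part of each lies under a peak. Those tables sort promoters by the peaks of vehicle-treated cells, into KAP1 only, Ring1b only and both proteins. The sequences are the 250 bases before the RefSeq transcript start (GRCm38.p6), 5′ to 3′ on the gene's strand, and capitals mark the bases under a peak of the list. They are the highest-scoring cases in each class with a sequence at hand. Clcn4 (chr7:7299558-7299807, minus strand) encodes a chloride-proton exchanger, and Maz (chr7:127027006-127027255, minus strand) a zinc finger transcription factor. Both lie in the class with both proteins. Vmn2r29 (chr7:7278290-7278539, minus strand) encodes a vomeronasal receptor, and Hectd4 (chr5:121219969-121220218, plus strand) a HECT-domain protein. Both lie in the KAP1 only class. Ptbp2 (chr3:119783389-119783638, minus strand), which encodes a neuronal splicing regulator, is the single Ring1b only promoter with a peak.
Clcn4: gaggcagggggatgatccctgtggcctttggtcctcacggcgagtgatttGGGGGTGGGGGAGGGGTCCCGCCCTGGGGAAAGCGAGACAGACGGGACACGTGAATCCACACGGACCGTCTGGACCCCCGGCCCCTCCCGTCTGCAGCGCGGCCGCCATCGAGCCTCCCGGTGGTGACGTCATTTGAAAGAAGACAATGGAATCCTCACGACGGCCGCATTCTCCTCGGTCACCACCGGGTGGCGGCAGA
Maz: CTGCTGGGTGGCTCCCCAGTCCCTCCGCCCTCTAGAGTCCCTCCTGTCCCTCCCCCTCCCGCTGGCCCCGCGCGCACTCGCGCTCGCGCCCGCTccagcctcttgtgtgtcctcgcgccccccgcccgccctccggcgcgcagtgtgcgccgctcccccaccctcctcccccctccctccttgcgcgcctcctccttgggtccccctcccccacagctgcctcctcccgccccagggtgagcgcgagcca
Vmn2r29: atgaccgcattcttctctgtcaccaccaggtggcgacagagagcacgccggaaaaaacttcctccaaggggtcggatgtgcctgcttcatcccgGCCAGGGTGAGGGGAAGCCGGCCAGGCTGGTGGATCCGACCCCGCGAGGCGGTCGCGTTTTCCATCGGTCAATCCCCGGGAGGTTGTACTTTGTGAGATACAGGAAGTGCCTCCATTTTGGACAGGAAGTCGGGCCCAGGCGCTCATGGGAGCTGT
Hectd4: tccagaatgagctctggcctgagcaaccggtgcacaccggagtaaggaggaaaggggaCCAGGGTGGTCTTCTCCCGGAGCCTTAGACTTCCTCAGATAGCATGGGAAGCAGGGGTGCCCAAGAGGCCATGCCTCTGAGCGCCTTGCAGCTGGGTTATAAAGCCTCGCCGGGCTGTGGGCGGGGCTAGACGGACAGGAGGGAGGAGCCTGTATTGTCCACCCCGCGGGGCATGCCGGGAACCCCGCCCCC
Ptbp2: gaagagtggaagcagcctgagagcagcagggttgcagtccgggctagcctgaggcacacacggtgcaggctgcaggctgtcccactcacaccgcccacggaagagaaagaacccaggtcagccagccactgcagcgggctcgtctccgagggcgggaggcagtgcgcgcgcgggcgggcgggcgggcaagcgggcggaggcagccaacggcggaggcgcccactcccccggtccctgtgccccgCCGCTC
The peak lay over 200 of the 250 bases at Clcn4, 94 at Maz, 156 at Vmn2r29, 192 at Hectd4 and 6 at Ptbp2. The 250 bases held 22, 24, 17, 12 and 23 CpG dinucleotides in the same order, and their GC content was 66.0%, 76.8%, 60.8%, 64.4% and 72.4%.

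Most peaks of the list were narrow and close to the calling limit. The median width was 158 bp (quartiles 143 and 198 bp, range 61 to 6996 bp), and together the peaks covered 1.92 Mb. The sheared fragments were about 200 bp long per the labels' protocols, and 6760 of the 8928 peaks (75.7%, exact binomial 95% interval 74.8 to 76.6%) were 200 bp wide or less. In the vehicle Ring1b list 1.14% of peaks were that narrow, and in the vehicle KAP1 list 0.0846%, with median widths of 587 and 512 bp. The score of a peak is the authors' own value, 10 times the −log10 p that MACS gave the peak against its control, and it ranks peaks only within this list. The median score was 58.9 (quartiles 53.7 and 67.1), where the lowest was 50.0. Scores under 60 were carried by 5027 peaks (56.3%) and scores under 100 by 94.9%. At the other end, 67 peaks (0.750%) scored 200 or more and 9 scored 1000 or more. A total of 124 peaks (1.39%) were 1 kb or wider, and 29 of them reached 2 kb.

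**Figure D1:**
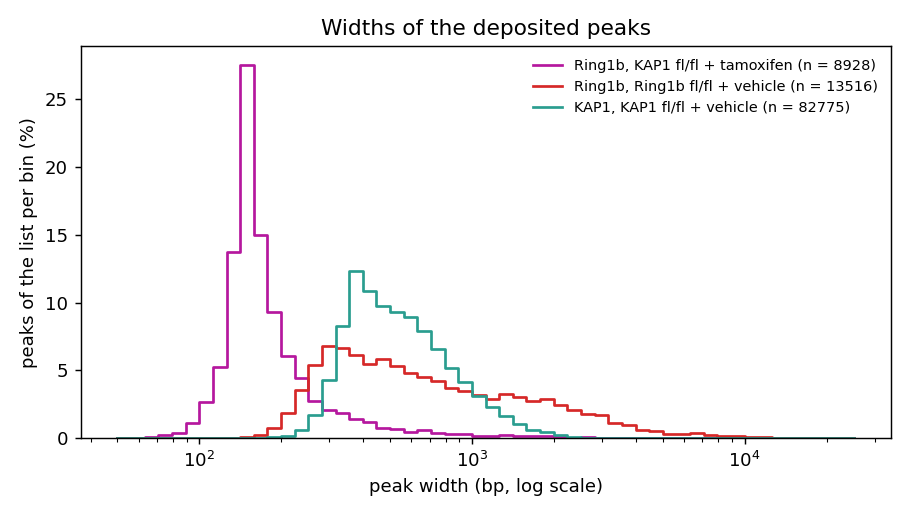
Width of the deposited peaks (horizontal axis, bp, log scale) against the percentage of each list in each width bin (vertical axis). The Ring1b list of KAP1 fl/fl OHT cells, median 158 bp, lies left of both vehicle lists, whose medians are 587 bp for Ring1b and 512 bp for KAP1.

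Width and place went together. Of the 3237 peaks up to 150 bp wide, 8.68% lay on chromosome 8, and the percentage rose through every wider class to 69.4% of the 124 peaks over 1 kb. Those wide peaks numbered 86 on chromosome 8 and 19 on chromosome Y, with 5 each on X and chromosome 6, 3 on chromosome 9 and 6 on all other chromosomes. Their median score was 132, against 57.5 for peaks up to 150 bp.

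The highest-scoring peaks stood in a few places, away from protein-coding genes. The peak with the highest score, 3213, spanned 6441 bp of the X chromosome (chrX:170011452-170017892), over Erdr1 as RefSeq places it there and 20654 bp from Mid1, which encodes a microtubule-associated ubiquitin ligase. A second peak just beyond it, also over Erdr1, scored 1170. On chromosome Y the widest peak of the list (chrY:90785519-90792514, 6996 bp) scored 3013. It met the deposited promoter of Erdr1, which the authors' table places on Y. Erdr1 and the end of Mid1 lie at the pseudoautosomal boundary, sequence that the X and Y chromosomes share, so reads there may be assigned to either copy and these peaks are uncertain. The Y chromosome held 3 more of the 9 peaks above 1000 (scores 1692, 1462 and 1055). The other 3 stood side by side on chromosome 9, 24835 to 30889 bp from Ccr1, a chemokine receptor gene, with scores of 1942, 1446 and 1141. The tenth peak by score (697, 319 bp) lay on chromosome 16 over the long non-coding RNA gene Gm4827, 117927 bp from the nearest protein-coding gene, Cd47. None of these 10 peaks lay over a protein-coding gene.

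Among the 10 widest peaks, 5 lay on chromosome 8, 4 on Y and 1 on X. Width did not fix the score: a 6887 bp peak on chromosome 8 (chr8:20422498-20429384), over the transcribed pseudogene 2610005L07Rik and the pseudogene Gm20584, scored 52.0. A 4751 bp peak nearby, over 2610005L07Rik and the pseudogene Gm7807, scored 613. Protein-coding genes in RefSeq lay under 3 of the 10: Gm15319 (peak of 4298 bp, score 362), Gm40469 (3774 bp, 247) and Gm52481 (4198 bp, 592).

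Chromosome 8 carried more of the list than any other chromosome. It held 1128 peaks (12.6%), or 8.72 per Mb (exact Poisson 95% interval 8.22 to 9.25, counting error only). The other autosomes held 3.15 per Mb together, from 2.37 on chromosome 6 to 4.68 on chromosome 13. The density on chromosome 8 was 2.77 times that of the other autosomes (95% interval 2.60 to 2.95). The same ratio was 0.761 in the vehicle Ring1b list and 0.958 in the vehicle KAP1 list. Chromosomes X and Y held 1.46 and 2.15 peaks per Mb. Part of the excess came from a few crowded stretches. When every 1 Mb window with 20 or more peaks was set aside, a limit chosen after the counts were seen, chromosome 8 still held 6.07 peaks per Mb against 3.07 on the other autosomes, a ratio of 1.98. Chromosome 13 then fell to 3.15 per Mb, within the range of the other autosomes, 2.37 to 3.71.

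The remaining peaks of chromosome 8 were spread unevenly along it. Its 13 successive windows of 10 Mb, the last one shorter, held 32 to 89 peaks each outside the crowded stretches. The fewest lay between 50 and 60 Mb (32), close to the density of the other autosomes, and the most (89) between 120 Mb and the end of the annotated span. Between 0 and 10 Mb there were 35. That window includes the start of the chromosome, which the counts by 1 Mb window leave out, so its density was not compared. These peaks looked like those elsewhere: their median width was 158 bp and their median score 58.9, against 156 bp and 58.7 on the other autosomes outside the crowded stretches. Chromosome 8 copy number in the 2 lines was not measured, so its part in this density was not tested.

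**Figure D2:**
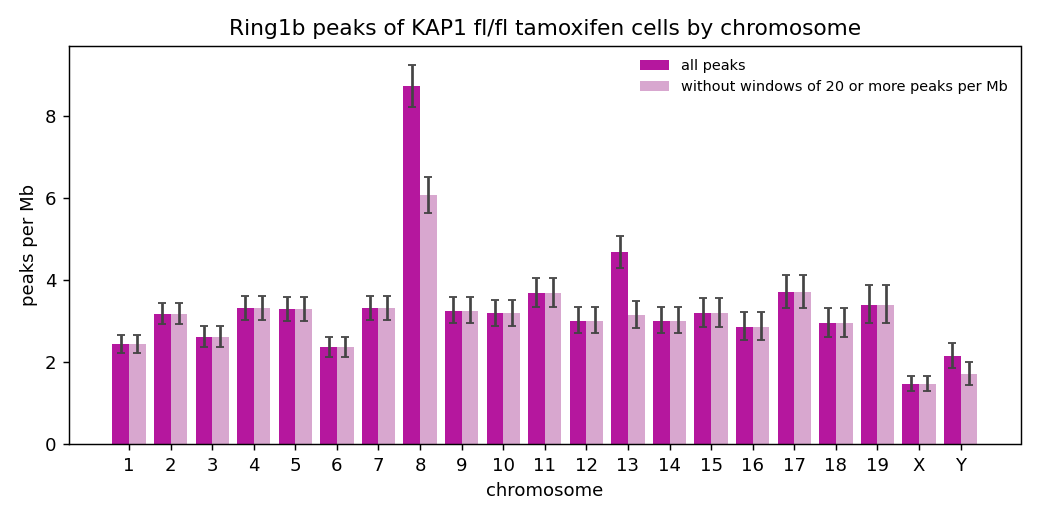
Peaks per Mb (vertical axis) on each chromosome (horizontal axis), for all peaks and without the 1 Mb windows that hold 20 or more, with exact Poisson 95% intervals as bars. Chromosome 8 stands at 8.72 and 6.07 peaks per Mb, above every other chromosome in both counts, and chromosome 13 drops from 4.68 to 3.15.

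The 1 Mb windows with 20 or more peaks, called crowded here, were 7 in number and held 600 peaks together (6.72%). Their peaks were wider and scored higher than the rest, with a median of 428 bp and 73.7 against 156 bp and 58.7. They made up 20.8% of the length the list covers, 104 of its 124 peaks of 1 kb or more and 33 of its 67 peaks that scored 200 or more. Outside them the autosomal windows held a median of 3 peaks.

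The densest window, from 20 to 21 Mb of chromosome 8, held 229 peaks that covered 229 kb, and the window before it held 77. RefSeq places 7 protein-coding genes and 14 pseudogenes in the denser window, and 16 and 14 in the one before. Most of the coding genes from 19 to 20 Mb encode beta-defensins, small secreted antimicrobial peptides (Defb4, Defb14 and others). The largest groups of close peaks in that window lay over no Defb gene. They lay over genes such as 4930467E23Rik and 9530057J20Rik and over pseudogenes. From 19 to 20 Mb the vehicle Ring1b list had 2 peaks and the vehicle KAP1 list 8, and from 20 to 21 Mb they had 0 and 7. On chromosome 13, the windows from 65 to 66 and 66 to 67 Mb held 68 and 122 peaks. Here the vehicle KAP1 list was dense as well, with 58 and 81 peaks, and the vehicle Ring1b list held 6 and 3. RefSeq places 18 and 23 pseudogenes in these windows, and 1 numbered zinc finger gene in each, Zfp369 and Zfp640. The median widths of the chromosome 13 windows were 256 and 218 bp, below the 732 bp of the densest chromosome 8 window and above the 156 bp outside crowded windows.

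The other 3 windows held fewer peaks. The window from 69 to 70 Mb of chromosome 8 held 42 peaks and 6 numbered zinc finger genes, among them Zfp868 and Zfp866, and that from 125 to 126 Mb held 20. The window from 90 Mb to the end of chromosome Y held 42 peaks with a median width of 723 bp and a median score of 105. Pseudogene-rich and repeated sequence can take reads that fit several copies, and whether such reads were kept is not stated in the labels or file headers.

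**Figure D3:**
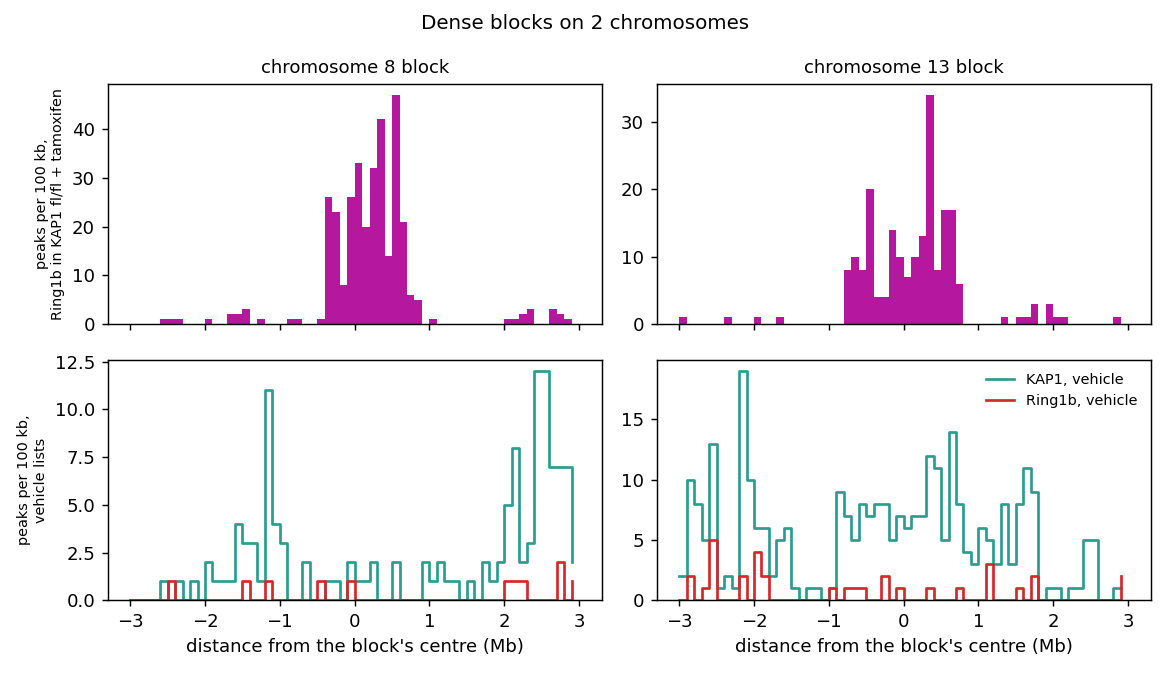
Peaks per 100 kb (vertical axes) against the distance from the centre of the chromosome 8 block and the chromosome 13 block (horizontal axes, Mb), with the Ring1b list of KAP1 fl/fl OHT cells above and the 2 vehicle lists below. The chromosome 8 block reaches 47 peaks per 100 kb where the vehicle lists have 2 KAP1 and 0 Ring1b peaks, and the chromosome 13 block reaches 34 beside 12 vehicle KAP1 peaks.

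Over the whole list the median gap between neighbouring peaks was 158439 bp, and 414 of 8896 gaps (4.65%) were 1 kb or less. Outside the crowded windows the median gap was 178993 bp, and 153 of 8296 gaps (1.84%) were that short. A run was defined as neighbouring peaks with gaps of at most 10 kb. Runs held 1448 peaks (16.2%, 95% interval 15.5 to 17.0%), in 454 runs, and 363 of those were pairs. The share was 45.4% in the vehicle Ring1b list and 76.2% in the vehicle KAP1 list, which hold more peaks. Without the 7 crowded windows 10.7% of peaks stood in runs. Only 40 runs held 5 or more peaks, of which 14 lay on chromosome 8 and 18 on chromosome 13.

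The longest run held 70 peaks over 159669 bp of chromosome 8 (chr8:20493270-20652938), across the predicted genes Gm21119 and Gm40469. Next came 2 runs of 45. One (chr8:20339757-20441811) began at Gm15319, and its peaks covered 68.9% of it. The other (chr8:19961567-20076613) lay over the pseudogene Gm20778 and the long non-coding RNA gene Gm36166, and its peaks covered 19.5%. The fourth, with 35 peaks (chr8:20257549-20326853), took in the transcribed pseudogene 6820431F20Rik, and the fifth, with 34, reached 4930467E23Rik (chr8:19679521-19739252). Outside the crowded windows, the run with the most peaks was that near Ccr1 (chr9:123924269-123937291), where 11 peaks covered 77.3% of 13023 bp. It was followed by 10 peaks within 4961 bp inside Ccdc91 on chromosome 6 (chr6:147549902-147554862), a gene for a trans-Golgi accessory protein. Vehicle Ring1b peaks were at 0 in both of these places.

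Relative to genes, 428 peaks (4.79%) met a deposited promoter, which reaches 1 kb to either side of a start site. A further 3534 (39.6%) lay in the body of a protein-coding gene with a curated transcript. Only another RefSeq gene was met by 977 (10.9%), and 3989 (44.7%) met no RefSeq gene. Protein-coding genes that have predicted transcripts only were counted with the other RefSeq genes. Exon and intron were not resolved, because the annotation used gives gene borders only. Promoter peaks were wider than the rest (median 218 against 157 bp) and scored slightly higher (61.6 against 58.8). In the crowded windows the order was different: 36.8% of the 600 peaks met only such other RefSeq genes, and 4 met a deposited promoter.

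At promoters the list fell mostly into the KAP1 only class. A peak met 416 of 13039 deposited promoters, a background of 3.19%. Among the classes, 370 of 6919 KAP1 only promoters had a peak (5.35%, exact 95% interval 4.83 to 5.90%). The count was 45 of 5236 for promoters with both proteins (0.859%, 0.628 to 1.15%). It was 1 of 884 for Ring1b only promoters (0.113%, 0.00286 to 0.629%). The KAP1 only interval lies above both others and above the background, while promoters that carried Ring1b in vehicle cells lie below it. That background covers only promoters with a vehicle peak, and most of those are KAP1 only. Promoters with no deposited class were counted over the 250 bases before RefSeq starts. There a peak lay over 102 of 20225 with no class and 24 of 4838 with both proteins. It lay over 261 of 7088 KAP1 only promoters and 1 of 700 Ring1b only promoters. A share below the background need not lie below that of promoters with no class. On chromosome 8 the KAP1 only share was 12.3% (54 of 440), and on the other chromosomes 4.88% (316 of 6479), so the order of the classes did not rest on chromosome 8. Windows shared by neighbouring genes were common: 82 of the 428 promoter peaks (19.2%) met promoters of 2 or more genes and cannot be assigned to 1 of them.

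Over whole genes the classes lay closer together. A peak met 2589 of 13002 genes in the deposited whole-gene tables, a background of 19.9%. It met 1322 of 6067 genes with both proteins (21.8%), 1219 of 6478 KAP1 only genes (18.8%) and 48 of 457 Ring1b only genes (10.5%). Gene length moved with these shares. Genes with both proteins had a median length of 39431 bp and KAP1 only genes 25805 bp. Per Mb of gene, KAP1 only genes held 4.86 peaks, genes with both proteins 3.58 and Ring1b only genes 2.09. Among the shortest genes (up to about 13 kb), 6.23% of KAP1 only genes and 2.66% of genes with both proteins had a peak. Among the longest the order turned, with 40.8% and 44.3%.

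**Figure D4:**
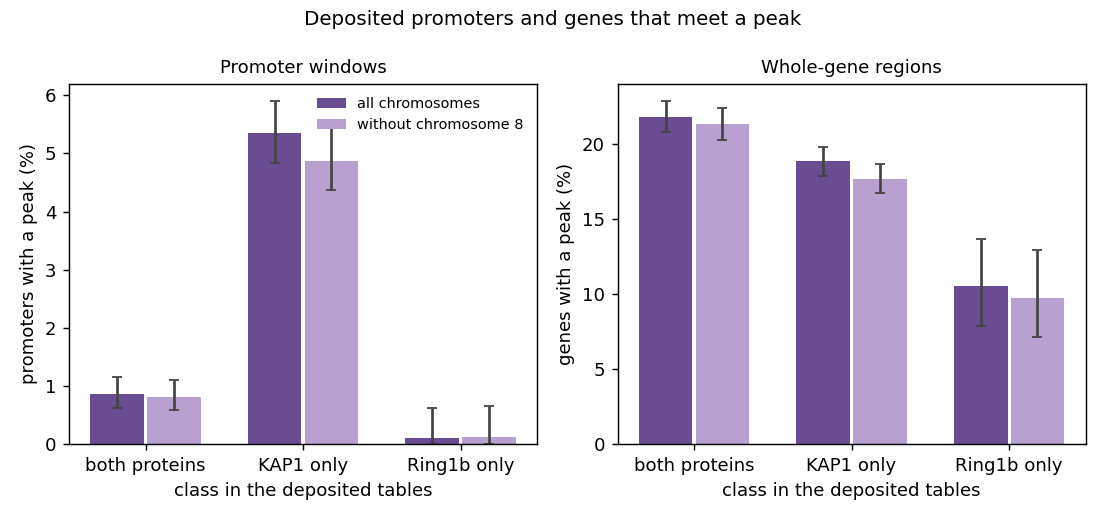
Percentage of deposited promoters (left) and whole-gene regions (right) that meet a peak, by class (horizontal axes), for all chromosomes and without chromosome 8, with exact binomial 95% intervals as bars. KAP1 only promoters stand at 5.35% and 4.88%, above promoters with both proteins (0.859% and 0.815%), whereas whole genes with both proteins stand at 21.8%.

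The named promoter peaks show how modest most scores were. In the class with both proteins, the highest belonged to Zeb1 (196), which encodes a repressor of epithelial genes, and to Clcn4 (195). Maz followed at 158, then 4933439C10Rik with its neighbour Zkscan17 at 105, Ctnnal1, an alpha-catenin-like gene, at 104 and the Krüppel-like factor gene Klf13 at 75.9. Each of the 6 except Clcn4 met a vehicle KAP1 peak, and none met a vehicle Ring1b peak. In the KAP1 only class the highest after the uncertain Erdr1 peak were Vmn2r29 (305), 6820431F20Rik (200), Hectd4 (143), the ribosome biogenesis gene Rrp1 (130) and Rack1 (127). Rack1 encodes a ribosome-bound scaffold protein, and its window also holds the small nucleolar RNA genes Snord95 and Snord96a. The Ptbp2 peak, the only one in the Ring1b only class, scored 55.6. It met neither a KAP1 nor a Ring1b peak of the vehicle lists.

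Summits gathered at transcript starts. Of 8645 summits with a RefSeq start on the same chromosome in the sequence table, 411 (4.75%, exact 95% interval 4.32 to 5.22%) lay within 500 bp of one. Within 250 bp there were 317, of which 196 lay upstream and 121 downstream. The 100 bp just upstream held 140 summits and the 100 bp just downstream 85. By comparison, 88 summits lay 1500 to 2000 bp from a start.

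**Figure D5:**
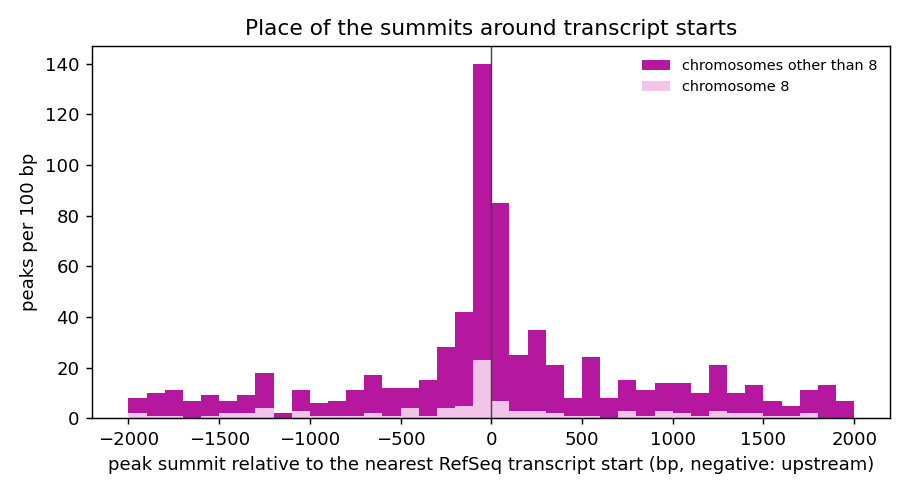
Number of peak summits per 100 bp (vertical axis) by their position relative to the nearest RefSeq transcript start (horizontal axis, bp, negative upstream), with the part on chromosome 8 in the paler colour. The 2 bins at the start hold 140 and 85 summits.

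Promoters under these peaks held more CpG than promoters in general. A peak lay over the 250 bases before the start at 388 of 32851 RefSeq promoters. Their median GC content was 60.4% against 52.4% over all promoters. They held a median of 17 CpG dinucleotides, against 6. A ratio of observed to expected CpG of 0.6 or more was found in 72.7% of them and in 33.95% of all. Of the printed examples, Hectd4 fell below that ratio (0.468), and the other 4 lay between 0.705 and 0.812. The KAP1 only class is CpG-rich itself, and within it the gap was smaller: 84.3% of the 261 promoters with a peak and 68.5% of all 7088 reached that ratio, with a median GC content of 62.0% and 59.6%. In the class with both proteins it was 83.3% of 24 and 69.2% of 4838. Among promoters with no deposited class the gap stayed wide, with 40.2% of the 102 with a peak and 12.6% of all 20225.

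The list rarely coincided with Ring1b sites of vehicle cells. Only 44 of 8928 peaks (0.493%, exact 95% interval 0.358 to 0.661%) overlapped a vehicle Ring1b peak, and the median distance to the nearest was 80105 bp. A vehicle KAP1 peak was met by 1211 (13.6%, 12.9 to 14.3%), with a median distance of 10953 bp, in a much longer list. At deposited promoters the shares were 373 of 428 for KAP1 (87.1%) and 18 of 428 for vehicle Ring1b (4.21%). The tables themselves put a promoter in its class by those peaks, so neither share is independent of the class. Away from promoters KAP1 was met by 9.86%. The highest score among the 44 was 225, at a peak 23669 bp from Elovl6, a fatty acid elongase gene. A peak of score 130 within Ank3, which encodes the membrane adaptor ankyrin-G, came next. All other peaks of the 44 scored 78.4 or less.

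Of the protein-coding genes in RefSeq with a curated transcript, 3008 of 21031 had a peak over the gene, a background of 14.3%. Genes with a peak were longer, with a median of 64090 bp against 14655 bp without. A single peak was found in 2407 of them. The most lay over 4930467E23Rik (19), Gm21119 (17), 2410141K09Rik (13), Gm15319 (12) and Cdh13 (12). The first 4 lie in crowded windows and span 23.0 to 49.3 kb. Cdh13, which encodes T-cadherin, spans 1185 kb of chromosome 8, and its peaks amount to 1.01 per 100 kb against 38.5 in 4930467E23Rik.

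The developmental regulators for which Polycomb is best known were met in a smaller share than all protein-coding genes. A peak lay over 9 of 174 regulators of endoderm, mesoderm, neuroectoderm and trophectoderm and Hox genes as 1 set (5.17%, exact 95% interval 2.39 to 9.59%), against the background of 14.3%. None of the 174 had a peak at a deposited promoter, and not all of them have one. The share was 3.19% over all deposited promoters and 0.859% over those with both proteins, so few would be met at such shares. These genes are short, with a median of 5880 bp, against 17729 bp over all protein-coding genes. Among deposited genes up to about 13 kb, 6.23% of KAP1 only genes and 2.66% of genes with both proteins had a peak. The background of 14.3% is thus not matched for length, and the part of length in the count was not tested. The deposited genes all have a vehicle peak and use the deposited borders, so they are not a matched set either. Among endoderm regulators, the transcription factor genes Gata4 (62.1) and Gata6 (53.9) and the adaptor gene Dab2 (61.3) had 1 peak each in the gene body, 3 of 25. The mesoderm list had 3 of 46, in Tbx5 (64.0), Runx1 (62.6) and Tbx6 (62.0), all transcription factor genes. In the neuroectoderm list, Lmx1a (57.5), a gene for a dopaminergic neuron factor, was the only one of 46. The trophectoderm list had Gcm1 (87.9), which directs syncytiotrophoblast formation, and the growth factor receptor gene Fgfr2 (69.6), 2 of 21. The Hox clusters had 0 of 39, which allows a share of up to 7.69%.

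Genes of the 2 repressor systems had peaks in counts that do not stand apart from the background of 14.3% at this list size. For PRC1 it was 4 of 26 (exact 95% interval 4.36 to 34.9%). A promoter peak of score 79.5 stood at Pcgf6, which encodes a subunit of a variant PRC1, and peaks in the gene body at Scmh1 (67.4), Phc3 (54.4) and Cbx7 (51.2). For PRC2 it was 4 of 12 (9.92 to 65.1%). Aebp2 (143) had its peak in the gene body, and the accessory subunit genes Mtf2 (98.4) and Phf1 (78.1) had theirs at the promoter. Jarid2 (60.6), another accessory subunit gene, had its peak in the gene body. The KAP1 pathway list had 5 of 26 (6.55 to 39.4%). Pphln1 (96.7), which encodes a subunit of the HUSH silencing complex, had its peak in the body. Cbx1 (80.0), a heterochromatin protein 1 gene, and Zfp568 (75.8), a KRAB zinc finger gene, had theirs at the promoter. Tasor (53.4), of the HUSH complex, and the chromatin remodeller gene Chd4 (53.2) were met in the gene body. Cbx3, a further heterochromatin protein 1 gene, shares a promoter window with Hnrnpa2b1, and that window held a peak of score 108.

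Trim28 and Rnf2, the genes targeted in the 2 lines, had no peak. The nearest lay 143121 bp from Trim28 and 158640 bp from Rnf2. Ring1, the paralogue of Rnf2, had its nearest peak at 169117 bp. No peak lay over the 4 pluripotency factor genes looked up: Pou5f1 was 18941 bp from a peak, Nanog 46161 bp, Klf4 164881 bp and Sox2 228728 bp. Of the differentiation genes Sox17, T, Pax6, Cdx2 and Hand1 the nearest to a peak was Hand1, at 46764 bp. Zfp57, which encodes a KRAB zinc finger protein that guards imprints, had a peak 2313 bp away. The imprinted gene Peg3 and the cytoskeletal gene Actb were 141431 and 281221 bp away. Of the 17 genes looked up in this way, 2 had a peak over the gene, Gata4 and Gata6, and 0 had one at the promoter, beside 3.19% of all deposited promoters. The pluripotency list as a whole had 5 of 40 (12.5%, exact 95% interval 4.19 to 26.8%), near the background of 14.3%. Esrrb, a nuclear receptor gene of naive pluripotency, carried 3 peaks, the highest at 154. The DNA demethylation gene Tet2 (69.3) and the RNA-binding protein gene Lin28a (64.5) had 1 peak each in the body, as did Jarid2. Dnmt3l, which encodes a cofactor of DNA methylation, had 1 at its promoter (59.4).

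Most of the replication-dependent histone genes with a peak encode histone H2A. The genes of this list encode the histones made in S phase, and they are short, with a median of 492 bp. A peak lay over 13 of 63 (20.6%, exact 95% interval 11.5 to 32.7%), and the interval takes in the background of 14.3%. That background is over genes with a median of 17729 bp and is not matched for length. Among deposited genes up to about 13 kb, 6.23% of KAP1 only genes and 2.66% of genes with both proteins had a peak. Those deposited genes all have a vehicle peak, and their regions are 1062 bp or longer, so they do not match the histone genes either. The part of length was not tested. By histone, a split made after the values were seen, it was 10 of 17 H2A genes, 2 of 12 H3 genes, 1 of 6 H1 genes, 0 of 16 H2B genes and 0 of 12 H4 genes. The highest scores were at H3c8 (94.9), H2ac13 (88.2), H2ac4 (87.8) and H2ac7 (86.6). These 13 peaks were wider than the list, with a median of 416 bp and a range of 210 to 808 bp. They covered 44.7 to 98.8% of the gene, with a median of 80.3%. At H2ac13, for example, a peak of 455 bp (chr13:21716349-21716803) covered 87.5% of the 448 bp gene. All 13 met a vehicle KAP1 peak and none met a vehicle Ring1b peak. Of the 13, 11 lay on chromosome 13, outside its crowded windows, and 2 on chromosome 3. Promoter windows of neighbouring histone genes merge in the deposited tables, so 14 peaks met windows that name 30 of the 61 histone genes with a deposited promoter. The background of 3.19% counts windows and not genes, so the 30 cannot be read against it directly. H2A genes are near-identical copies, so reads may be split or shared between them, and the place of any 1 peak is uncertain.

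Other gene families ranged from nearly bare to close to the background. Numbered zinc finger genes, many of which encode KRAB proteins that bind KAP1, had a peak at 65 of 392 (16.6%, exact 95% interval 13.04 to 20.64%), against the background of 14.3%. A peak met the deposited promoter of 19 of the 309 that have one. Over all deposited promoters the share was 3.19%, counted by window and not by gene. The highest were Zfp827 (107), Zfp940 (102), Zfp488 (89.0) and Zfp213 (87.2), the last at its promoter. Ribosomal protein genes had 5 of 84. Among them, Rps28 (110), Rps9 (65.6) and Rps29 (56.7) had it at the promoter. The housekeeping list had 4 of 33, with the transferrin receptor gene Tfrc (59.98) first, then Ywhaz (59.7) at its promoter, Pgk1 (58.9) and Eno1 (52.9) at its promoter. Olfactory receptor genes had 9 of 1104 (0.815%), led by Olfr1331 (73.3), Olfr1312 (70.1), Olfr874 (67.7) and Olfr545 (62.0). Vomeronasal receptor genes had 13 of 353, where Vmn2r29 (305) stood far above Vmn2r85 (68.1), Vmn2r94 (59.7) and Vmn2r114 (59.0). Olfactory and vomeronasal receptor genes are also short, with medians of 950 and 960 bp.

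Imprinted genes had 6 of 39 with a peak (15.4%) and none at a deposited promoter, and germline genes had 6 of 41 (14.6%), both near the background of 14.3%. Of the imprinted genes 36 have a deposited promoter, and the share over all deposited promoters was 3.19%. Among imprinted genes Ppp1r9a, which encodes neurabin, carried the highest score (223), followed by the growth factor scavenger receptor gene Igf2r (74.1), the signal peptide peptidase gene H13 (67.6) and Usp29 (60.7), a ubiquitin protease gene. The germline genes with the highest scores were the RNA helicase gene Ddx4 (109), the piRNA-pathway gene Piwil4 (72.6), the meiotic cohesin gene Stag3 (57.1) and Tdrd7 (55.3). The totipotency-associated list had 0 of 25, which allows up to 12%. The clustered protocadherins had 1 of 57 (1.75%, exact 95% interval 0.0444 to 9.39%), Pcdhb12 (60.6), below the background. Their median length was 90252 bp. The interval takes the 57 as separate genes, and whether their borders overlap was not checked. Fibroblast markers, listed because the cells grew on feeders, had 1 of 25 (4%, 0.101 to 20.4%), the collagen gene Col1a2 (57.3). Peaks at marker genes give no level of feeder chromatin in the library. The ampliconic list of the sex chromosomes had 2 of 11, Mid1 with 8 peaks (highest 113) and Sly with 1 (53.1). Mid1 is in that list although it is a single gene whose end lies at the pseudoautosomal boundary. Reads there may be assigned to X or Y, so its peaks are uncertain.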

How the data were processed

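The data are 5 ChIP-seq libraries, 1 for each group of mouse embryonic stem cells, which underlie 3 peak lists and 6 gene tables. Per the labels' protocols, cells were fixed for 10 min in 1.2% formaldehyde, chromatin was sheared to about 200 bp, and 3 µg of Ring1b or 5 µg of KAP1 antibody was used. The submitters' processing notes name MACS 1.4.2, bedtools 2.16.2, Bowtie2 and CASAVA 1.8.2, and the build mm10 (GRCm38). Per the file headers, each list was called on 1 library against another with a p limit of 1e-05. The only unit is the score, deposited by the authors as 10 times −log10 p. It is not a level, and no source used here gives read depths.

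Here intervals were compared with pandas 2.3.3, numpy 2.4.6 and scipy 1.17.1, and the interval code was checked on simulated data. Overlap meant at least 1 bp. Densities are per Mb from the first base of a chromosome to the end of its last gene or peak. Intervals are exact 95% ones, and they and the limits for 0 (3 counts) cover counting error only, since peaks and genes are not replicates. With 1 library per group no test between conditions was possible. Gene borders were those of RefSeq on GRCm38.p6, and 12939 of 13039 deposited promoters matched it by accession. The 16 peaks on unplaced contigs entered the totals only.

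The 21 gene lists, 14 by symbol and 7 by symbol pattern, and the peak list itself were chosen with earlier results of these data known. Named genes were set by rule: 17 fixed genes, the 6 highest-scoring promoter peaks of each class, the 10 highest-scoring and 10 widest peaks, the 5 runs with the most peaks, the 5 genes with the most peaks, and up to 4 members per list with the highest scores. One gene that meets this rule is not reported here. Runs outside the crowded windows, the peaks at vehicle Ring1b sites, the crowded windows' genes, Zkscan17, Cbx3, Chd4, Tasor, Jarid2, Dnmt3l and the split by histone were added after their values were seen. The pattern for ribosomal protein genes was narrowed once the symbols were seen, because it also matched kinases. Alternatives were another overlap, gap, window or score limit, and leaving out chromosomes. Leaving out the crowded windows was an alternative added after seeing the data.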

Additional observations from a re-analysis of the deposited data

How the results depend on the processing

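No paired analysis was possible because each group has 1 library and no test was run. Of 78 recomputed values of the main results, 46 stayed within the main interval (within 1.5 times for the covered length). No alternative changed the order of the promoter classes or put chromosome 8 below the other autosomes.

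With only the upper 50% of scores, 1.14 Mb was covered and the median width was 169 bp. Promoter peaks then made up 0.311% (both proteins), 5.35% (KAP1 only) and 0% (Ring1b only) of it, and peaks over KAP1 only genes 18.5%. Promoters with a peak fell to 0.267%, 3.44% and 0% of the same classes, and genes to 12.4%, 10.9% and 5.91%. A KAP1 peak was met by 14.9%, a vehicle Ring1b peak by 0.355%, and the chromosome 8 ratio was 3.28. That ratio was 3.82 for peaks wider than the median, 2.33 after merging peaks within 1 kb and 1.98 without the crowded windows, which also gave a median width of 156 bp. Promoter windows widened by 4 kb met 1.67%, 7.33% and 0.0784% of peaks. The share in runs was 12.1% with gaps of 5 kb, 39.2% with 50 kb, 12.6% without chromosome 8 and 10.7% without the crowded windows. Within 1 kb, 20.4% of peaks met a KAP1 peak and 1.49% a vehicle Ring1b peak. Without chromosome 8, 17.6% of KAP1 only genes had a peak. On autosomes, 23.0% of peaks met genes with both proteins. Protein-coding genes with a peak were 13.8% at an overlap of 50% of the peak and 18.1% when widened by 5 kb. Of 42 recomputed counts of list members, 33 stayed within 1.5 times. Widening by 5 kb took histone genes from 13 to 34 and olfactory receptor genes from 9 to 28. The causes of these shifts were not tested beyond what each setting does by construction. Without read depths or replicates, no peak here has an error of its own.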

Other observations

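By kind of RefSeq gene, with no account taken of gene length and no test between kinds, a peak lay over 8 of 408 transfer RNA genes, 12 of 1004 small nuclear RNA genes and 1 of 1340 small nucleolar RNA genes in RefSeq. The count was 743 of 12727 for long non-coding RNA genes, 22 of 485 for transcribed pseudogenes, with 67 peaks over them, and 123 of 9944 for other pseudogenes, with 186 peaks. Over protein-coding genes the share was 14.3%, and those with a peak were longer than those without. Outside the crowded windows, a 281 bp peak on chromosome 9 scored 616 at 230972 bp from Nt5e, its nearest protein-coding gene, and a 432 bp peak on chromosome 13 scored 438 at 158945 bp from Dapk1, likewise the nearest. Within genes, a 333 bp peak in Abca17, an ATP-binding cassette transporter gene, scored 458, and a 309 bp peak in the glutamate receptor gene Grid1 scored 369. These peaks were chosen after their values were seen, and no replicate checks them.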
